A study of Rattus norvegicus with 18 samples.

Results

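NF-κB is a family of transcription factors, and the genes described here are its subunits and the inhibitors that feed back on it. They were taken by symbol, with Nfkb1, Nfkb2, Rela, Relb and Rel listed as subunits and Nfkbia, Nfkbie, Nfkbiz, Bcl3 and Tnfaip3 as feedback inhibitors. Of these 10 genes, 7 have counts among the 17307 symbols of the astrocyte tables and the 17327 of the microglia tables, namely 3 of the 5 subunits and 4 of the 5 inhibitors. The symbols Relb, Rel and Tnfaip3 are not in the tables, so these genes were not analysed here.

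NF-κB works as a dimer that is held in the cytoplasm by inhibitor proteins of the IκB family. Receptors of innate immunity and of inflammatory cytokines switch on IκB kinases, the inhibitors are degraded, and the freed dimer enters the nucleus, where it also induces the genes of its own inhibitors. In astrocytes and microglia the pathway is known for driving the genes of chemokines, cytokines and other inflammatory mediators.

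The study asked how glial cells respond to fibrils of the amyloid peptides Aβ42 and Aβ40, by RNA sequencing of primary rat astrocytes and microglia. Cortical cultures of mixed glia came from wild type (WT) Sprague-Dawley pups at postnatal day P2, microglia were shaken off, the remaining astrocytes were re-plated, and both were kept in medium without serum before treatment. The 18 libraries are 3 untreated controls, 3 treated with Aβ42 fibrils and 3 with Aβ40 fibrils of each cell type, all taken at 24 h. The labels do not say whether replicates were separate cultures or animals, so the tests may measure technical spread, and an exact permutation of 3 libraries against 3 could not give a p under 0.1.

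The depth of a library is its number of counts on genes. It was 3674043, 3949126 and 13768995 in astrocyte controls 1, 2 and 3, 14839572, 10120352 and 8333014 with Aβ42, and 9574779, 19013919 and 15302150 with Aβ40. In microglia it was 8249339, 5098145 and 6648595 in controls, 2613723, 22274367 and 17687416 with Aβ42, and 4104702, 4425805 and 2271834 with Aβ40. Depth therefore ranged over 5.18 times among astrocyte libraries and 9.80 times among microglia libraries. Values are given as CPM, a gene's counts relative to the depth of its library, scaled for composition within a cell type (scaled CPM), and a detection limit of 3 counts lay between 0.160 and 0.835 scaled CPM in astrocytes and between 0.130 and 1.38 in microglia. The lowest count of any of the 7 genes was 28, for Nfkbiz in an astrocyte control, and limits of this kind cover counting error only. Transcript lengths were not available, so levels are compared between libraries and not between genes.

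A pair of libraries stood apart over all genes. As the root mean square difference of log2 scaled CPM over the tested genes, microglia Aβ42 replicate 1 was 0.62 from each of the other Aβ42 replicates, which were 0.20 from each other. It was 0.43, 0.44 and 0.51 from Aβ40 replicates 1, 2 and 3, nearer to those than to its own group, against its label. Astrocyte control 2 was 0.76 and 0.77 from controls 1 and 3, which were 0.42 from each other. Its file and that of astrocyte Aβ42 replicate 3 follow another naming than the rest, and whether they come from another run is not given. The fold changes and calls of the 7 genes against control are given with and without the library of the compared groups that stood apart. So are the counts of calls of the pathway lists against control. For the other comparisons and the interactions of the 7 genes this is done in part. Sums, ratios, medians, list interactions and correlations are given with them only.

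As sums, markers of astrocytes and of microglia were higher in the controls of their own cell type. Those of the oligodendrocyte lineage were at 2209 ± 436 scaled CPM in astrocyte controls and 2034 ± 115 in microglia controls (SD, n = 3 each). The 9 astrocyte markers summed to 9684 ± 1047 scaled CPM in astrocyte controls and 262 ± 15.3 in microglia controls (SD, n = 3 each), and the 10 microglial markers to 414 ± 29.5 and 8248 ± 611. With treatment, markers of the astrocyte and microglia lists were called in both cell types. Over all genes 16.5% were called higher and 20.4% lower in astrocytes with Aβ42, and 14.9% and 18.4% with Aβ40. In microglia these shares were 27.1% and 26.6% with Aβ42, and 19.6% and 21.4% with Aβ40. Of the 8 astrocyte markers tested in microglia, 3 were called higher and 1 lower with each fibril. The microglial markers in astrocyte libraries, 439, 382 and 422 in controls, were 175, 171 and 162 with Aβ42 and 140, 142 and 154 with Aβ40, and 0 of 10 were higher and 8 and 9 of 10 lower with Aβ42 and Aβ40. In the controls Csf1r was the most abundant of them, at 113 to 134 scaled CPM, and in 3 of the 6 treated libraries 1 of the 10 had 0 counts. In microglia the same markers summed to 7889, 7902 and 8953 in controls, 3226, 2007 and 2334 with Aβ42 and 2833, 2809 and 3455 with Aβ40, with 8 and 9 of 10 lower and 1 higher with each fibril, Itgam (log2 0.90 and 1.04). The astrocyte markers in astrocytes summed to 5901 ± 124 with Aβ42 and 6556 ± 149 with Aβ40 (SD, n = 3 each), but single markers went both ways. With Aβ42 6 of 9 were called lower and 2 higher (Slc1a2, log2 1.51, and Aldh1l1, 1.65), and with Aβ40 6 were lower and 3 higher (Slc1a2, 1.41, Aldh1l1, 1.44, and Aqp4, 0.53). In bulk RNA, fewer cells of a type and less RNA per cell cannot be told apart, and the part of these shifts in the results on the NF-κB genes was not tested.

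The promoters are shown because 6 of the 7 genes share a match to the κB consensus, the sequence class that NF-κB dimers bind. The genes were taken by symbol and not by sequence. As NF-κB is known to induce the genes of its own inhibitors, the share of matches is not independent of their choice. All 7 symbols have a promoter window in RefSeq (assembly GRCr8), of bases around the annotated start, and both strands were searched. The matches, in capitals within 30 bases of the gene's strand written 5′ to 3′, were these.
Nfkb1, chr2:226805440-226805469, minus strand: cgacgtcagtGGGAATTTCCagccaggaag
Nfkb2, chr1:255108344-255108373, plus strand: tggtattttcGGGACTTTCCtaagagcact
Nfkbia, chr6:78597084-78597113, minus strand: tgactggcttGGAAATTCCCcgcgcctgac
Nfkbie, chr9:22948017-22948046, minus strand: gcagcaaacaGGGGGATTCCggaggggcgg
Nfkbiz, chr11:58251698-58251727, plus strand: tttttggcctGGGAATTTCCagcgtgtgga
Bcl3, chr1:88613574-88613603, minus strand: tcggcggcagGGGAAGTCCCgcagcccggc
The match of Nfkbia and that of Bcl3 fit the consensus on the opposite strand, and on the strand that fits Nfkb1, Nfkbia and Nfkbiz carry the same 10 bases. Counted from the annotated start, with 1 as its first base, the first base of the match lay at 4 in Nfkb1, -13 in Nfkbiz, -20 in Nfkb2, -31 in Nfkbia, -38 in Bcl3 and -164 in Nfkbie. The window of Rela held no match. Over all promoter windows of the same length, 1400 of 33469 held one, or 4.18%, and by gene 1239 of 27457, or 4.51%. A match is a description of letters and not a binding site. In the RefSeq annotation no other gene overlaps any of the 7, so reads counted on them do not share their span with an annotated neighbour there, although the assembly the authors aligned to is older.

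In astrocytes both fibrils raised the transcripts of every measured gene of the group. All 7 were higher with Aβ42 than in controls and all 7 were higher with Aβ40, at an adjusted p under 0.05 in edgeR, which is the threshold for a call throughout. Over all 11690 genes tested in astrocytes, 16.5% were called higher and 20.4% lower with Aβ42, and 14.9% higher and 18.4% lower with Aβ40. The inhibitors Nfkbiz, Nfkbie and Nfkbia and the subunit Nfkb2 rose by over 6-fold with either fibril, and Rela rose by 2.48-fold and 2.45-fold. Both comparisons use the same 3 control libraries.

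Of the subunits, Nfkb1 encodes a precursor that is processed to a DNA-binding subunit without an activation domain of its own. Its scaled CPM was 81.8, 83.8 and 112 in controls, 428, 442 and 434 with Aβ42, and 412, 404 and 410 with Aβ40. The treated libraries all lay above the controls and close together. As a log2 fold change the rise was 2.23 with Aβ42 (SE 0.14, adjusted p = 4.11e-07) and 2.14 with Aβ40 (SE 0.14, adjusted p = 6.51e-07). Nfkb2 encodes the corresponding precursor of the noncanonical branch, whose processing depends on the kinase encoded by Map3k14. Its scaled CPM was 75.7, 35.4 and 65.4 in controls, 399, 383 and 314 with Aβ42, and 323, 382 and 363 with Aβ40. Control 2, one of the libraries that stood apart, was the lowest, and no treated library overlapped the controls. Its log2 fold change was 2.63 with Aβ42 (SE 0.24, adjusted p = 7.89e-06) and 2.59 with Aβ40 (SE 0.24, adjusted p = 9.58e-06).

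Rela encodes the subunit with the activation domain of the common heterodimer. Its scaled CPM was 176, 111 and 168 in controls, 410, 382 and 337 with Aβ42, and 339, 418 and 361 with Aβ40. The groups of treated libraries overlapped each other and lay above all controls. Rela rose by a log2 fold change of 1.31 with Aβ42 (SE 0.18, adjusted p = 0.000154) and 1.30 with Aβ40 (SE 0.18, adjusted p = 0.000186), the smallest of the 7 with either fibril.

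Of the inhibitors, Nfkbia encodes IκBα, which binds the dimers in the cytoplasm and is rebuilt quickly after NF-κB is activated. Its scaled CPM was 122, 107 and 113 in controls, 716, 741 and 698 with Aβ42, and 695, 732 and 714 with Aβ40. The spread within each group was small beside the distance between treated and control libraries. The log2 fold change was 2.65 with Aβ42 (SE 0.11, adjusted p = 2.16e-08) and 2.65 with Aβ40 (SE 0.11, adjusted p = 2.39e-08). Nfkbie encodes IκBε, a related inhibitor of the cytoplasm. Its scaled CPM was 21.2, 11.2 and 24.2 in controls, 177, 167 and 141 with Aβ42, and 179, 208 and 184 with Aβ40. The treated libraries lay above every control. Its log2 fold change was 3.07 with Aβ42 (SE 0.23, adjusted p = 2.17e-06) and 3.30 with Aβ40 (SE 0.24, adjusted p = 1.49e-06).

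Nfkbiz and Bcl3 encode nuclear members of the IκB family, which act on NF-κB at DNA and can raise or lower the transcription of particular targets. The scaled CPM of Nfkbiz was 7.79, 13.9 and 8.93 in controls, 164, 188 and 200 with Aβ42 and 185, 135 and 154 with Aβ40. It had the largest fold of the 7 in astrocytes, 18.2-fold with Aβ42 (log2 4.19, SE 0.22, adjusted p = 1.38e-07) and 15.6-fold with Aβ40 (log2 3.97, SE 0.22, adjusted p = 2.15e-07). Bcl3 was at 17.8, 14.6 and 20.7 scaled CPM in controls, 77.9, 67.7 and 49.5 with Aβ42 and 56.5, 88.4 and 66.6 with Aβ40. The treated libraries of both genes lay above all controls. For Bcl3 the log2 fold change was 1.86 with Aβ42 (SE 0.23, adjusted p = 8.39e-05) and 1.97 with Aβ40 (SE 0.23, adjusted p = 6.00e-05).

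Without astrocyte control 2, all 7 genes were again called higher with both fibrils, beside 22.1% higher and 24.8% lower over all genes with Aβ42 and 19.6% higher and 22.2% lower with Aβ40. With Aβ42 the log2 fold changes without it were 2.16 for Nfkb1, 2.39 for Nfkb2, 1.14 for Rela, 2.63 for Nfkbia, 2.82 for Nfkbie, 4.43 for Nfkbiz and 1.74 for Bcl3. With Aβ40 they were 2.07, 2.35, 1.12, 2.61, 3.05, 4.20 and 1.86 in the same order.

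**Figure D1:**
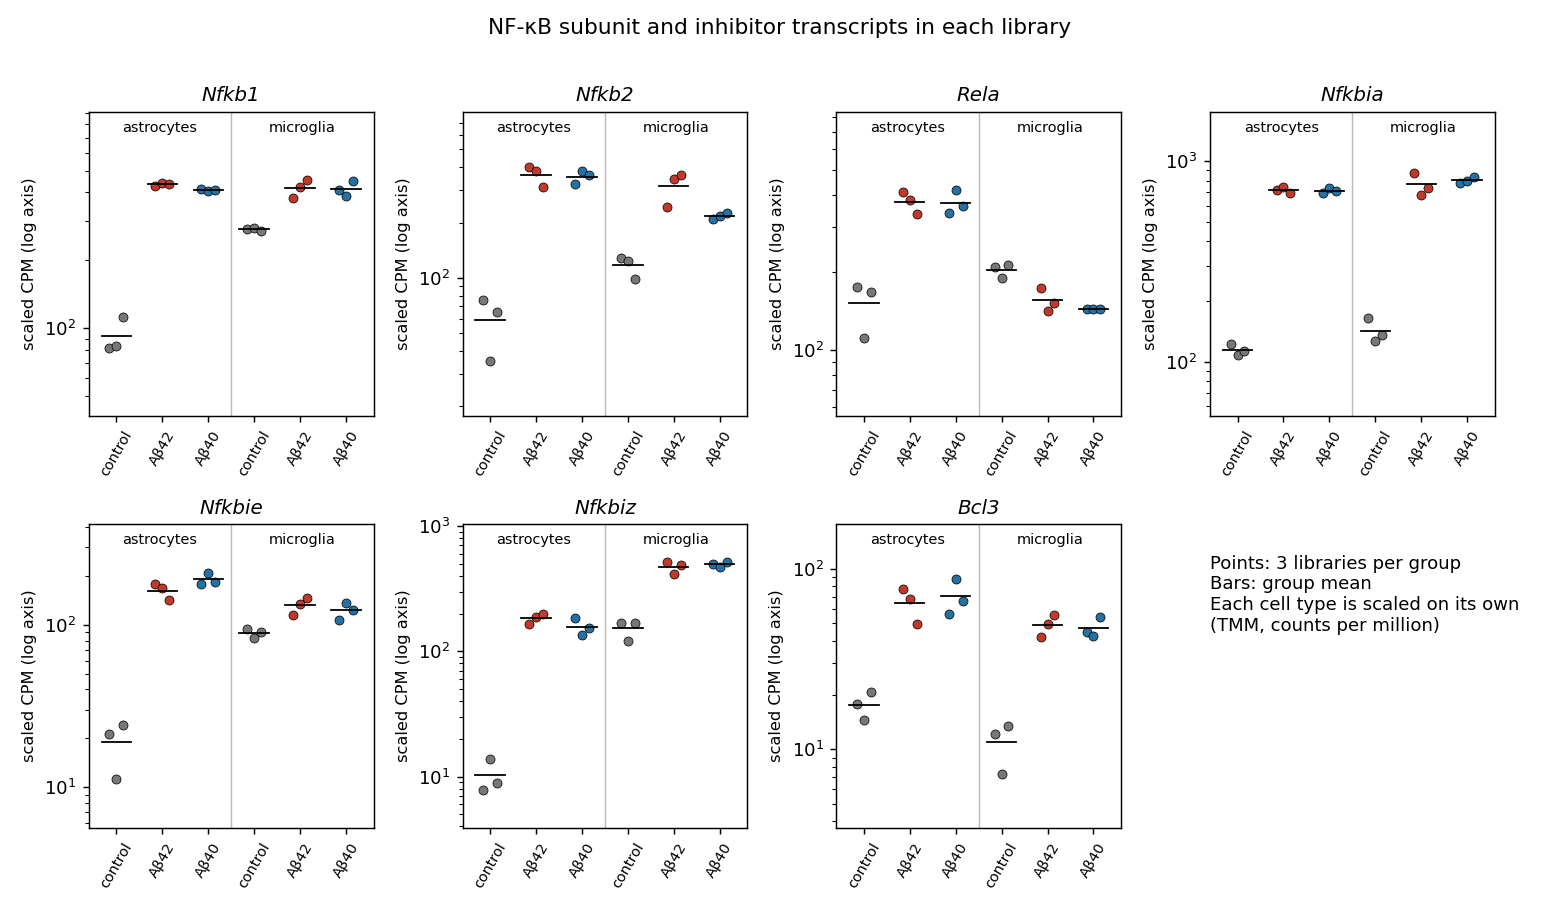
Scaled CPM (log axis) of the 7 measured NF-κB subunit and inhibitor genes in each of the 18 libraries, with 3 points per group and a bar at the group mean. Nfkbia lies at 107 to 122 in astrocyte controls and at 695 to 741 in treated astrocytes, and Rela lies at 190 to 213 in microglia controls and at 142 to 174 in treated microglia.

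The next comparison asked whether the fibrils differ in their effect on astrocytes. With edgeR 0 of the 7 genes were called between Aβ42 and Aβ40, 0 had an unadjusted p under 0.05, and DESeq2 called 0 as well, beside 0.0599% of all genes called higher and 0.0257% lower with Aβ42. Every adjusted p was 1, and the lowest unadjusted p, for Nfkbiz, was 0.244 in the quasi-likelihood fit of edgeR over all genes. The log2 difference, Aβ42 minus Aβ40, was 0.09 for Nfkb1 (95% interval -0.20 to 0.37), 0.04 for Nfkb2 (-0.45 to 0.52) and 0.01 for Rela (-0.37 to 0.39). Among the inhibitors it was 0.01 for Nfkbia (-0.21 to 0.23), -0.23 for Nfkbie (-0.69 to 0.23), 0.22 for Nfkbiz (-0.18 to 0.62) and -0.12 for Bcl3 (-0.58 to 0.35). Aβ42 and Aβ40 libraries were apart for Nfkb1, at 428 to 442 against 404 to 412 scaled CPM, or for Nfkbie, at 141 to 177 against 179 to 208. Differences within these intervals cannot be told apart from none with 3 libraries per group.

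In microglia the inhibitors and the subunits without an activation domain rose with both fibrils, and Rela fell. With Aβ42, 6 of the 7 genes were called higher and 1 lower, beside 27.1% of all 10837 tested genes called higher and 26.6% lower. With Aβ40, 6 were again called higher and 1 lower, beside 19.6% higher and 21.4% lower over all genes. The rise was over 5-fold for Nfkbia and under 2-fold for Nfkb1 and Nfkbie with both. Here too both comparisons use the same 3 controls.

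The scaled CPM of Nfkb1 in microglia was 276, 278 and 270 in controls, 379, 423 and 453 with Aβ42, and 410, 387 and 448 with Aβ40. The controls lay within a narrow range and below every treated library. The log2 fold change was 0.61 with Aβ42 (SE 0.10, adjusted p = 0.000330) and 0.59 with Aβ40 (SE 0.10, adjusted p = 0.000510). For Nfkb2 it was 128, 124 and 98.4 scaled CPM in controls, 244, 344 and 362 with Aβ42, and 208, 218 and 226 with Aβ40. The lowest Aβ42 value belongs to replicate 1, the library that stood apart, and no library of one group overlapped another group. The log2 fold change of Nfkb2 was 1.45 with Aβ42 (SE 0.15, adjusted p = 7.55e-06) and 0.90 with Aβ40 (SE 0.15, adjusted p = 0.000498).

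Rela in microglia was at 210, 190 and 213 scaled CPM in controls, 174, 142 and 153 with Aβ42, and 145, 144 and 145 with Aβ40. All 6 treated libraries lay below all controls. As a log2 fold change this was -0.40 with Aβ42 (SE 0.10, adjusted p = 0.00680) and -0.50 with Aβ40 (SE 0.11, adjusted p = 0.00223).

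Nfkbia, the gene of IκBα, was at 165, 127 and 136 scaled CPM in microglia controls, 878, 681 and 738 with Aβ42, and 782, 794 and 833 with Aβ40. Treated libraries were far above the controls with either fibril, and replicate 1 was the highest of the Aβ42 group. The log2 fold change was 2.42 with Aβ42 (SE 0.13, adjusted p = 2.17e-08) and 2.49 with Aβ40 (SE 0.13, adjusted p = 2.20e-08). Nfkbie, the gene of IκBε, was at 94.8, 83.4 and 90.4 in controls, 114, 135 and 145 with Aβ42, and 107, 136 and 124 with Aβ40. The groups did not overlap the controls, but the distance was small. Its log2 fold change was 0.56 with Aβ42 (SE 0.12, adjusted p = 0.00229) and 0.45 with Aβ40 (SE 0.13, adjusted p = 0.0123), and the Aβ40 call was lost without Aβ40 replicate 2 (log2 0.36, adjusted p = 0.0744).

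The nuclear IκB genes rose as well. Nfkbiz was at 167, 121 and 170 scaled CPM in microglia controls, 515, 411 and 491 with Aβ42, and 498, 471 and 513 with Aβ40, and the treated libraries lay above all controls. Its log2 fold change was 1.63 with Aβ42 (SE 0.14, adjusted p = 1.26e-06) and 1.69 with Aβ40 (SE 0.14, adjusted p = 1.12e-06). Bcl3 was at 12.1, 7.34 and 13.4 in controls, 41.98, 49.5 and 55.3 with Aβ42 and 44.9, 42.3 and 54.2 with Aβ40. Again no treated library reached down to a control. Its log2 fold change was 2.16 with Aβ42 (SE 0.19, adjusted p = 1.87e-06) and 2.06 with Aβ40 (SE 0.20, adjusted p = 4.82e-06).

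Without microglia Aβ42 replicate 1, 6 genes were called higher with Aβ42 and Rela lower, beside 34.6% higher and 35.7% lower over all genes. The log2 fold changes were then 0.67 for Nfkb1, 1.59 for Nfkb2, -0.48 for Rela, 2.31 for Nfkbia, 0.63 for Nfkbie, 1.55 for Nfkbiz and 2.21 for Bcl3.

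**Figure D2:**
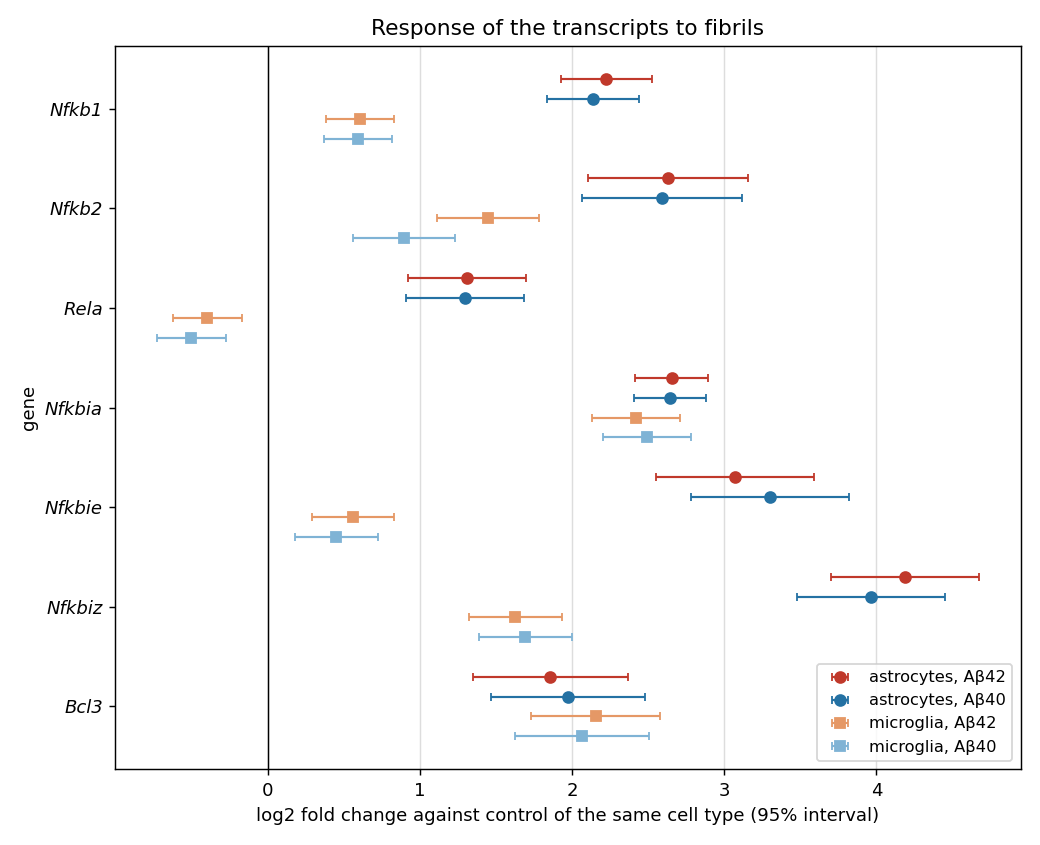
Log2 fold change against the controls of the same cell type for each of the 7 genes, with its 95% interval, in astrocytes (circles) and microglia (squares) with Aβ42 or Aβ40 fibrils. Rela is at 1.31 and 1.30 in astrocytes and at -0.40 and -0.50 in microglia, whereas Nfkbia lies between 2.42 and 2.65 in all 4 comparisons.

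Between the fibrils in microglia, Nfkb2 alone of the 7 genes was called by edgeR. It was higher with Aβ42 than with Aβ40 by a log2 difference of 0.55 (95% interval 0.22 to 0.88, SE 0.15, adjusted p = 0.0309), and its libraries, 244 to 362 against 208 to 226 scaled CPM, did not overlap. Over all genes 11.3% were called higher and 9.01% lower, so 1 higher call among 7 genes is near the share called higher. DESeq2 also called 1 of the 7. The call of Nfkb2 was lost without control 1 (log2 0.54, adjusted p = 0.0508), without Aβ42 replicate 2 (0.49, 0.123) or 3 (0.45, 0.142), and without Aβ40 replicate 1 (0.52, 0.104), 2 (0.55, 0.0892) or 3 (0.58, 0.0945). It was also lost in a fit of the compared groups alone (0.55, adjusted p = 0.0761). Without Aβ42 replicate 1, whose profile was nearer to the Aβ40 libraries, the difference was 0.70 (SE 0.10, adjusted p = 3.15e-05) and Nfkb2 was again the single call, beside 27.1% of all genes higher and 26.8% lower. Leaving out that library raised the number of genes called from 2198 to 6004.

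For the other 6 genes the libraries of the fibrils overlapped in microglia. The log2 difference was 0.01 for Nfkb1 (95% interval -0.21 to 0.24, adjusted p = 0.927), 0.10 for Rela (-0.13 to 0.33, adjusted p = 0.472) and -0.07 for Nfkbia (-0.34 to 0.20, adjusted p = 0.692). It was 0.11 for Nfkbie (-0.16 to 0.38, adjusted p = 0.523), -0.07 for Nfkbiz (-0.36 to 0.23, adjusted p = 0.738) and 0.09 for Bcl3 (-0.30 to 0.48, adjusted p = 0.724). Without Aβ42 replicate 1 the difference was 0.08 for Nfkb1, 0.02 for Rela and -0.18 for Nfkbia. For Nfkbie, Nfkbiz and Bcl3 it was then 0.19, -0.13 and 0.18, again without a call.

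The cell types were compared in a fit of all 18 libraries. Astrocytes and microglia were prepared and tabulated separately, so cell type cannot be told apart from preparation. In the controls, microglia held more transcript of 6 of the 7 genes and 0 were called lower, beside 34.2% of 11581 tested genes called higher and 34.5% lower. Nfkbiz, one of the nuclear IκB genes, differed most. On the scaling common to all libraries its mean was 9.54 ± 3.06 scaled CPM in astrocyte controls and 169 ± 29.5 in microglia controls (SD, n = 3 each), 18.1-fold (log2 4.18, SE 0.20, adjusted p = 1.09e-12). Nfkbie was at 17.6 ± 6.23 and 99.6 ± 6.11 (log2 2.46, SE 0.20, adjusted p = 1.32e-09). Nfkb1 was at 86.3 ± 14.7 and 306 ± 6.19 (log2 1.82, SE 0.12, adjusted p = 9.45e-11).

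The other members lay closer between the control cells. Nfkb2 was at 55.0 ± 19.6 in astrocytes and 130 ± 18.4 in microglia (log2 1.24, SE 0.21, adjusted p = 3.23e-05). Rela was at 142 ± 32.6 and 227 ± 12.9 (log2 0.68, SE 0.14, adjusted p = 0.000291), and Nfkbia at 107 ± 7.14 and 158 ± 22.2 (log2 0.57, SE 0.11, adjusted p = 0.000161). For these 6 genes the control libraries of the cell types did not overlap, but the share of all genes without overlap was not counted. Bcl3, at 16.5 ± 2.72 and 12.2 ± 3.51, overlapped and was not called (log2 -0.44, SE 0.24, adjusted p = 0.102).

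The values of this comparison move with the scaling. Library totals in place of TMM moved the median of all genes by -0.28 on the log2 scale and the share of calls that are higher in microglia from 49.8% to 37.4%. The 6 genes were still called higher there, with Rela at 0.41 (adjusted p = 0.0109) and Nfkbia at 0.30 (adjusted p = 0.0190), and Bcl3 was at -0.72 (adjusted p = 0.0103). Each moved by about as much as the median of all genes, so the call gained for Bcl3 comes with that common shift. Bcl3 was also called lower after all libraries were thinned to the smallest (-0.79, adjusted p = 0.0274). Without astrocyte control 2 the same 6 genes were called, with 0.51 for Rela, 0.54 for Nfkbia and 0.99 for Nfkb2.

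The difference between the responses of the cell types was tested as an interaction, the log2 response of microglia minus that of astrocytes. For Aβ42, 5 of the 7 genes were called lower and 0 higher, beside 17.9% of all genes lower and 19.3% higher. For Aβ40, 5 were called lower and 0 higher, beside 16.5% lower and 16.0% higher. All 3 subunits and the inhibitors Nfkbie and Nfkbiz were the genes called, and Nfkbia and Bcl3 were not, with either fibril.

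For Nfkbie the interaction was -2.51 with Aβ42 (SE 0.26, adjusted p = 4.35e-07) and -2.86 with Aβ40 (SE 0.26, adjusted p = 1.09e-07). For Nfkbiz it was -2.58 (SE 0.26, adjusted p = 2.53e-07) and -2.30 (SE 0.26, adjusted p = 1.26e-06). For Rela, which rose in astrocytes and fell in microglia, the interaction was -1.71 with Aβ42 (SE 0.20, adjusted p = 1.91e-06) and -1.81 with Aβ40 (SE 0.20, adjusted p = 1.15e-06). Nfkb1 was at -1.62 (SE 0.17, adjusted p = 3.60e-07) and -1.56 (SE 0.17, adjusted p = 6.91e-07), and Nfkb2 at -1.19 (SE 0.29, adjusted p = 0.00298) and -1.72 (SE 0.29, adjusted p = 0.000141).

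For Nfkbia the interaction was -0.24 with Aβ42 (95% interval -0.57 to 0.08, adjusted p = 0.240) and -0.17 with Aβ40 (-0.50 to 0.16, adjusted p = 0.440). For Bcl3 it was 0.30 (-0.35 to 0.95, adjusted p = 0.483) and 0.08 (-0.57 to 0.74, adjusted p = 0.874). These intervals do not reach a difference of 1 on the log2 scale in either direction. The same 5 genes were called without astrocyte control 2, where the Aβ42 interaction was -1.54 for Rela and -0.94 for Nfkb2, and without microglia Aβ42 replicate 1, where it was -1.77 and -1.02.

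**Figure D3:**
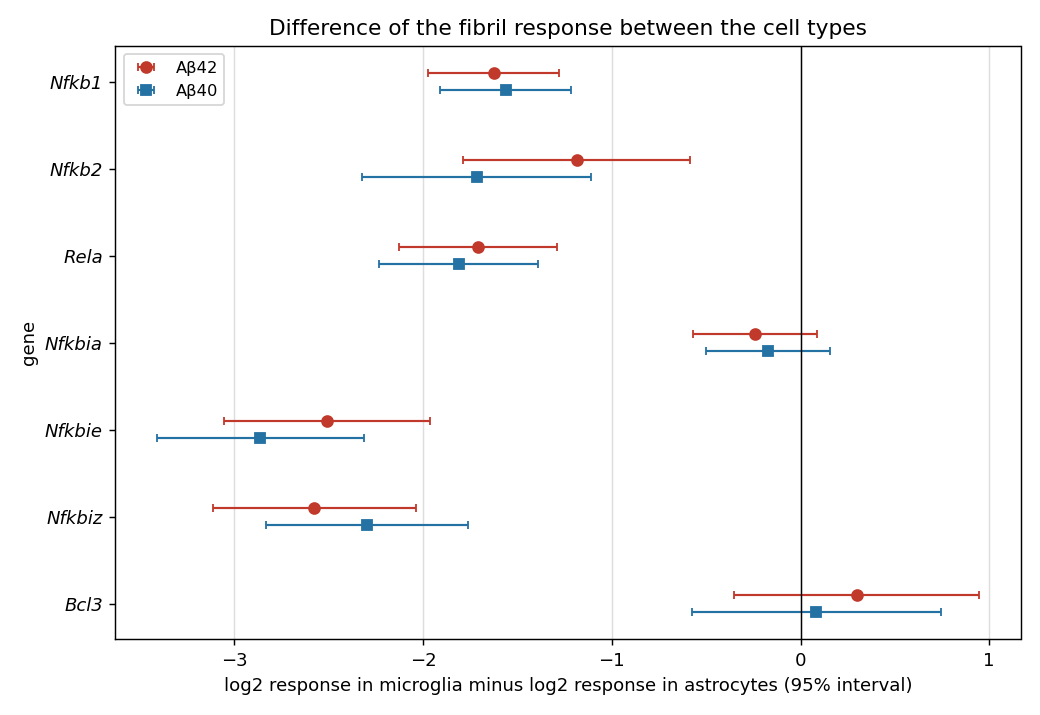
Difference of the fibril response between the cell types, as the log2 response of microglia minus that of astrocytes with its 95% interval, for Aβ42 (circles) and Aβ40 (squares). The values for Nfkbie are -2.51 and -2.86, and the intervals for Nfkbia and Bcl3 include 0.

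The reads of one gene per read of another need no scaling for depth and were compared across libraries. Nfkbia reads per Rela read set the main cytoplasmic inhibitor beside the activating subunit. In astrocytes this ratio was 0.694, 0.966 and 0.672 in controls, 1.75, 1.94 and 2.07 with Aβ42, and 2.05, 1.75 and 1.98 with Aβ40. In microglia it was 0.786, 0.667 and 0.638 in controls, 5.05, 4.81 and 4.83 with Aβ42, and 5.40, 5.51 and 5.76 with Aβ40. The controls of the cell types overlapped, every treated library lay above them, and every treated microglia library lay above every treated astrocyte library. In microglia the ratio with Aβ40 lay above that with Aβ42 in all libraries. These ratios were not tested.

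Nfkbie reads per Rela read had a mean of 0.122 ± 0.0214 in astrocyte controls, 0.430 ± 0.00955 with Aβ42 and 0.512 ± 0.0164 with Aβ40 (SD, n = 3 each). In microglia the means were 0.438 ± 0.0133, 0.853 ± 0.169 and 0.848 ± 0.104. Treated libraries lay above the controls of their own cell type in both. Nfkb2 reads per Nfkb1 read compare the precursors of the noncanonical and the canonical branch. In microglia they were 0.464, 0.445 and 0.364 in controls, 0.645, 0.815 and 0.800 with Aβ42, and 0.508, 0.563 and 0.505 with Aβ40, with no overlap among the groups. In astrocytes they were 0.925, 0.423 and 0.586 in controls, and the control range took in every treated library but 2, at 0.931 and 0.945. Nfkbia reads per read of Nfkbib, the gene of IκBβ, had means of 2.34 ± 0.474, 5.25 ± 0.773 and 6.07 ± 0.616 in astrocyte controls, Aβ42 and Aβ40, and 1.86 ± 0.243, 4.66 ± 0.0425 and 5.72 ± 0.305 in microglia.

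**Figure D4:**
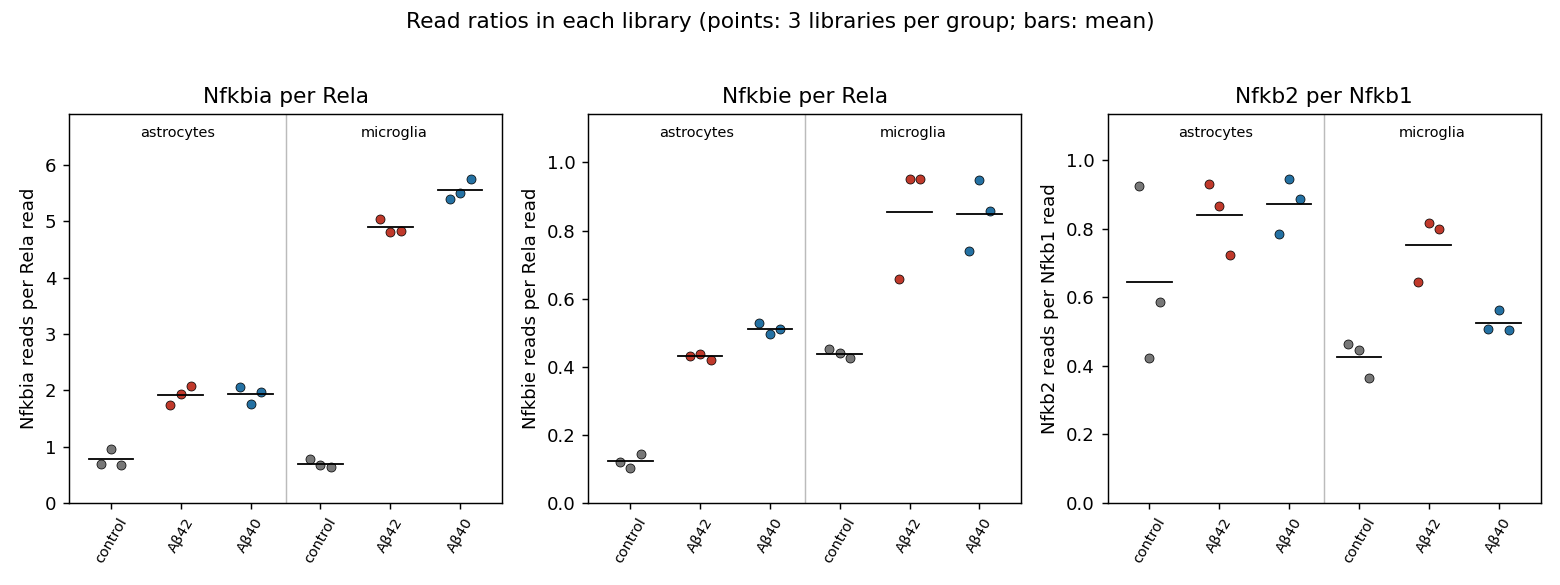
Reads of one gene per read of another in each library, with 3 points per group and a bar at the mean, for Nfkbia per Rela, Nfkbie per Rela and Nfkb2 per Nfkb1. Nfkbia per Rela is under 1 in all controls, 1.75 to 2.07 in treated astrocytes and 4.81 to 5.76 in treated microglia.

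Around the members, the rest of the pathway was described by lists of kinases, receptor adaptors, ubiquitin editors and textbook targets, each beside a median of all genes within 0.01 of 0 on the log2 scale. Of the 12 listed kinases and kinase partners 11 were tested in both cell types. In astrocytes 5 were higher and 1 lower with Aβ42 (list median log2 0.49) and 4 higher and 1 lower with Aβ40 (0.26), where 16.5% of all genes were called higher and 20.4% lower with Aβ42 and 14.9% and 18.4% with Aβ40. In microglia 4 were higher and 4 lower with Aβ42 (median -0.14) and 4 higher and 2 lower with Aβ40 (0.12), where the shares over all genes were 27.1% and 26.6% with Aβ42 and 19.6% and 21.4% with Aβ40. The most raised were the same in all 4 comparisons, Map3k8, the kinase bound by the Nfkb1 precursor, and Ikbke, an IκB kinase relative. In astrocytes Map3k8 rose by 3.75 and 3.55 and Ikbke by 2.76 and 2.73 on the log2 scale with Aβ42 and Aβ40. In microglia Map3k8 rose by 1.24 and 1.57 and Ikbke by 1.52 and 2.02. Tab2, an adaptor of the kinase upstream of the IκB kinases, fell in astrocytes to log2 fold changes of -0.93 and -0.78, and in microglia to -0.49 with Aβ42.

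The core IκB kinase complex is encoded by Chuk, Ikbkb and Ikbkg. Ikbkb, its main catalytic subunit for IκBα, rose in astrocytes from a mean of 82.5 to 218 scaled CPM with Aβ42 (log2 1.40, adjusted p = 4.25e-06) and 232 with Aβ40 (log2 1.49, adjusted p = 3.06e-06). In microglia it was at 119 in controls, 108 with Aβ42 (log2 -0.14, adjusted p = 0.225) and 144 with Aβ40 (log2 0.27, adjusted p = 0.0412). That last call was lost without any 1 of the 3 controls, the 3 Aβ40 libraries or Aβ42 replicate 2 (log2 0.23 to 0.32). Chuk, the other catalytic subunit, was higher with Aβ42 in astrocytes (log2 0.58, adjusted p = 0.0442) and in microglia (0.41, adjusted p = 0.0191) and with Aβ40 in microglia (0.52, adjusted p = 0.00791), and was at 0.38 with Aβ40 in astrocytes (adjusted p = 0.178). The astrocyte Aβ42 call of Chuk was lost without controls 1 or 3, or without replicate 2 or 3 of either fibril (log2 0.43 to 0.58), and Chuk was called with Aβ40 without control 2 (0.59, adjusted p = 0.0115). Its microglia Aβ42 call was lost without control 3 (0.42, adjusted p = 0.0543).

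Ikbkg, the regulatory subunit, was higher in astrocytes with Aβ42 (log2 0.49, adjusted p = 0.0245) and Aβ40 (0.43, adjusted p = 0.0493). The Aβ42 call was lost without control 1 or Aβ42 replicate 1 or 3 (0.46 to 0.48), and the Aβ40 call without any 1 of the astrocyte libraries other than control 3 (0.38 to 0.47). In microglia Ikbkg was at -0.32 with Aβ42 (adjusted p = 0.114), where it was called without Aβ42 replicate 1 (-0.45, adjusted p = 0.00302), and at 0.12 with Aβ40 (adjusted p = 0.607). Map3k14 encodes the kinase of the noncanonical branch, through which the Nfkb2 precursor is processed. It fell in microglia, at -0.57 with Aβ42 (adjusted p = 0.00238) and -0.63 with Aβ40 (adjusted p = 0.00269), where it and Tab2, or with Aβ40 Tab1 (-0.46), were the lowest of the list. In astrocytes it was at -0.40 (adjusted p = 0.173) and -0.17 (adjusted p = 0.587), and with Aβ42 it was called without control 2 (-0.59, adjusted p = 0.00836). The Tab1 call was lost without microglia control 1 or 3 or Aβ40 replicate 3 (-0.41 to -0.37), and the 8 kinases called with Aβ42 in microglia became 5 without control 3.

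Of 22 listed receptor adaptors, 17 were tested in astrocytes and 16 in microglia. In astrocytes 14 were higher and 1 lower with Aβ42 (median log2 0.88) and 13 higher and 2 lower with Aβ40 (0.83). In microglia 9 were higher and 4 lower with Aβ42 (0.37) and 6 higher and 5 lower with Aβ40 (0.26), beside the shares over all genes given for the kinases. The most raised in each comparison were Birc3, a ubiquitin ligase of the tumour necrosis factor receptor complex, and Traf1, an adaptor of the same receptors. Birc3 rose by 5.32 and 5.28 in astrocytes and by 3.90 and 3.98 in microglia, and Traf1 by 3.52 and 2.89 and by 3.64 and 3.14. Without astrocyte control 3, Traf1 was at 4.25 and 3.62 in astrocytes. Card9, an adaptor of fungal pattern receptors, was the lowest, at -1.52 and -1.71 in astrocytes and -0.78 and -0.82 in microglia. The next lowest calls were Ripk1 at 0.35 and Irak1 at -0.34 in astrocytes, and Ripk1 at -0.56 and Tradd at -0.73 in microglia, with Aβ42 and Aβ40. The astrocyte call of Ripk1 was lost without control 1 or any 1 treated library (0.30 to 0.39), that of Irak1 without control 1, Aβ42 replicate 2 or Aβ40 replicate 1 or 3 (-0.34 to -0.31), and that of Tradd without microglia control 1 (-0.62).

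The ubiquitin editors include the partners of A20, the Tnfaip3 protein, and 11 of the 13 listed were tested. In astrocytes 5 were higher with Aβ42 (median log2 0.46) and 4 with Aβ40 (0.29), and 0 were called lower by edgeR, beside 16.5% of all genes higher and 20.4% lower with Aβ42 and 14.9% and 18.4% with Aβ40. In microglia 4 were higher and 4 lower with Aβ42 (0.10) and 3 higher and 3 lower with Aβ40 (-0.03), beside the shares of all genes called there, 27.1% higher and 26.6% lower with Aβ42 and 19.6% and 21.4% with Aβ40. Tnip1, which binds A20, rose by 2.62 and 2.49 in astrocytes and by 1.29 and 1.63 in microglia. Cyld, a deubiquitinase, rose by 1.24 with either fibril in astrocytes, and N4bp1 rose by 2.01 and 2.09 in microglia. The smallest astrocyte calls were Tnip2 at 0.46 and Rnf31 at 0.64 with Aβ42, and Rnf31 at 0.68 and N4bp1 at 0.70 with Aβ40, and that of Tnip2 was lost without Aβ42 replicate 2 or 3 (0.47 and 0.45). The lowest in microglia were Otulin (-1.15) and Itch (-0.98) with Aβ42, and Otulin (-1.46) and Sharpin (-0.73) with Aβ40. Otulin removes linear ubiquitin chains and Sharpin is part of the ligase that builds them. The 8 editors called with Aβ42 in microglia became 5 without Aβ42 replicate 3.

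All 26 textbook targets were tested. In astrocytes 24 were higher and 0 lower by edgeR with Aβ42 (median log2 5.13) and with Aβ40 (4.85), and in microglia 25 were higher and 0 lower with Aβ42 (4.04) and with Aβ40 (4.12). Over all genes 16.5% and 14.9% were called higher in astrocytes and 27.1% and 19.6% in microglia, and 20.4%, 18.4%, 26.6% and 21.4% lower. In astrocyte controls Il6 and Csf2 were at or under 3 counts in every library, and with these at their lower bound against the mean detection limit of the control libraries the astrocyte medians were 4.81 and 4.51. The most raised in astrocytes were Nos2, the inducible nitric oxide synthase, from a mean of 1.06 scaled CPM to 554 and 328 (log2 9.39 and 8.63), and the chemokine gene Ccl20, from 0.885 to 444 and 343 (9.27 and 8.89). These folds rest on low control counts, and without control 2 or control 3 Nos2 was at 10.07 or 8.60 with Aβ42 and 9.31 or 7.85 with Aβ40, and Ccl20 at 9.92 or 8.57 and 9.55 or 8.20. In microglia Il6 rose from 1.40 to 312 and 355 (log2 7.75 and 7.94, and 8.35 and 8.55 without control 1), Ccl20 rose by 7.52 with Aβ42 and Csf2 by 7.66 with Aβ40. The smallest called rises were Gadd45b (1.32 and 1.42) and Csf1 (1.46 and 1.68) in astrocytes. In microglia they were Cd83 (0.47) and Tlr2 (0.55) with Aβ42, and Tlr2 (0.51) and Csf1 (0.62) with Aβ40, and that of Csf1 was lost without control 3 (0.52) or Aβ40 replicate 3 (0.56).

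**Figure D5:**
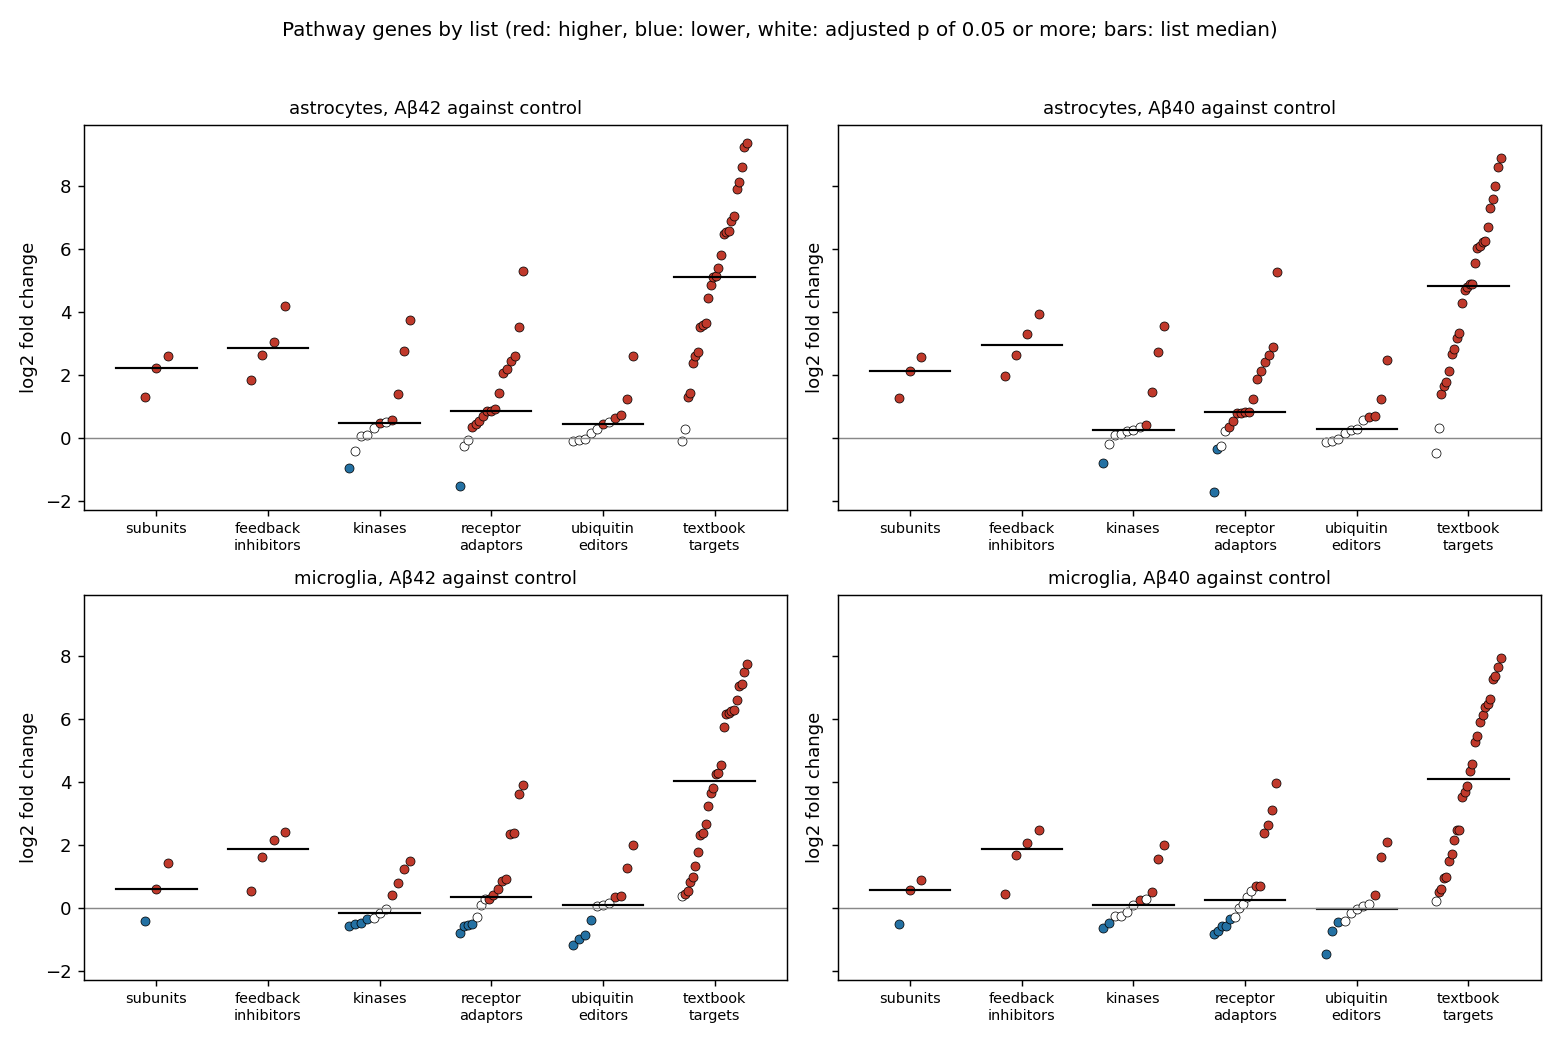
Log2 fold change of each tested gene by list in the 4 comparisons of a fibril with control, with called genes in red (higher) or blue (lower), other genes in white and a bar at the list median. The median of the textbook targets is 5.13 and 4.85 in astrocytes and 4.04 and 4.12 in microglia, and the fitted values of Il6 and Csf2 in astrocytes are not bounds.

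Nfkbib, the gene of IκBβ, is in the tables, whereas Nfkbid is not. Nfkbib rose by 1.49 and 1.26 in astrocytes and by 1.10 and 0.88 in microglia. Between the fibrils, edgeR called 0 genes of these lists in astrocytes, beside 0.0599% of all genes higher and 0.0257% lower with Aβ42. With so few calls over all genes, this count does not show that the lists are alike between the fibrils. The median log2 difference, Aβ42 minus Aβ40, was 0.37 for targets, 0.05 for adaptors, 0.03 for kinases and 0.01 for editors. In microglia edgeR called 2 kinases lower with Aβ42 than with Aβ40 (Ikbkb -0.42, Tab2 -0.39) and 2 adaptors higher (Tradd 0.83, Traf1 0.50). There 1 editor was higher (Rbck1 0.49) and 1 lower (Itch -0.59), and 1 target was higher (Ccl5 1.12). These are 7 of 64 list genes tested, where 11.3% of all genes were called higher and 9.01% lower. As interactions with Aβ42, 5 of 11 kinases, 8 of 17 adaptors, 5 of 11 editors and 12 of 26 targets were called lower in microglia than in astrocytes, and 0, 3, 1 and 4 higher, beside 17.9% of all genes lower and 19.3% higher. With Aβ40 these were 3, 9, 6 and 11 lower and 1, 3, 1 and 5 higher, beside 16.5% lower and 16.0% higher. Without astrocyte control 2, with Aβ42 in astrocytes 6 kinases were higher and 2 lower, and 14 adaptors higher and 2 lower. There 7 editors and 24 targets were higher, beside 22.1% of all genes higher and 24.8% lower. With Aβ40 the counts were 5 kinases higher and 1 lower, 13 adaptors higher and 2 lower, 5 editors higher and 24 targets higher. Over all genes the shares were then 19.6% higher and 22.2% lower. Without microglia Aβ42 replicate 1 the counts in microglia with Aβ42 were 4 kinases higher and 5 lower, and 9 adaptors higher and 5 lower. There 4 editors were higher and 4 lower and 25 targets higher, beside 34.6% of all genes higher and 35.7% lower. The κB consensus was found in the promoter windows of 9 of 19 targets, 2 of 8 kinases, 2 of 12 adaptors and 1 of 8 editors that have one, among them Map3k8, Tnip1, Ccl20, Il6 and Lcn2. By gene, 4.51% of all genes searched held a match. The targets were listed as known targets of NF-κB, so their share of matches is not independent of that choice.

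The members varied together to different degrees over the 18 libraries. As a description, values were log2 scaled CPM from the scaling common to all libraries, minus the mean of the controls of the same cell type. Pearson's r was 0.98 between Nfkb1 and Nfkbie, 0.97 between Nfkb1 and Nfkbiz, 0.96 between Nfkb1 and Nfkb2 and 0.96 between Nfkbia and Bcl3. Rela had r of 0.92 with Nfkbie, 0.86 with Nfkb1, 0.77 with Nfkb2 and 0.76 with Nfkbiz, and 0.34 with Nfkbia and 0.21 with Bcl3. The points fall into 6 groups that share a cell type and a treatment, so these values mostly follow the groups. The difference between the controls of the cell types is removed, and that between their responses is included. Of 10204 genes compared in the same way, the genes most like Nfkbia were Lcn2, Cfb and Cxcl6, with r of 0.996, 0.995 and 0.992. The genes most like Nfkb2 were Tap1, RT1-CE14 and Piezo1, with r of 0.990, 0.988 and 0.983.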

How the data were processed

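The authors deposited 1 table per library with the read count of each gene symbol, whole numbers that were not normalized. By the study's methods reads were aligned to the assembly rn5 by STAR, Salmon quantified genes, and gene counts are put down to DESeq2. DESeq2 takes counts as its input and the tables hold tallies of reads on no gene and of ambiguous reads, so the tool that counted is not certain, and its strand setting is not given. The libraries were stranded (TruSeq). Between 26.0% and 34.2% of counted reads in astrocytes and 21.7% and 24.5% in microglia were on no gene or on more than 1, and were left out. The tests used R 4.3.3 with edgeR 4.0.16, DESeq2 1.42.0 and limma 3.58.1. Counts of the 9 libraries of a cell type were scaled by TMM, filtered by filterByExpr and fitted with glmQLFit without covariates, and tested with glmQLFTest, with Benjamini-Hochberg adjustment over all genes tested (11690 in astrocytes, 10837 in microglia). Cell types were compared in a fit of the 18 libraries over 11581 genes of the 16704 shared symbols. All 7 genes with counts passed the filters. Correlations and distances used log2 scaled CPM with a prior count of 2. For the correlations between genes, the mean of the controls of the same cell type was subtracted first.

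Genes outside the group were named by a rule, the 2 highest and 2 lowest called log2 fold changes of each list in each comparison of a fibril with control, always Chuk, Ikbkb, Ikbkg and Map3k14, and the 3 genes most like Nfkbia and Nfkb2. Genes named between the fibrils or for a promoter match, the markers named and the libraries that stood apart were chosen after their values were seen. The members and lists were chosen with earlier results of these data known.

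Markers of other cells were summed to look for their RNA. The most abundant microglial marker in treated astrocytes is not reported here. Of the 8 astrocyte markers tested in microglia, 3 were called higher and 1 lower with each fibril, so their sum hides moves both ways. Of 5 neuronal markers in astrocytes, 5 and 4 were called lower and 0 higher with Aβ42 and Aβ40. Of 4 fibroblast markers tested in microglia, 3 and 2 were higher and 1 lower with each. Of 8 oligodendrocyte lineage markers, 5 were called lower and 0 higher in astrocytes with each fibril. In microglia 5 and 4 of them were higher and 1 lower with Aβ42 and Aβ40. Over all genes 20.4% and 18.4% were lower in astrocytes, and 27.1% and 19.6% higher in microglia. From control to Aβ42 and Aβ40, astrocyte markers in microglia summed to 262, 263 and 247 scaled CPM. The oligodendrocyte lineage summed to 2209, 1330 and 1358 in astrocytes and 2034, 2488 and 2380 in microglia, neurons to 161, 66.5 and 75.3 and to 254, 288 and 340, fibroblasts to 149, 182 and 193 and to 53.0, 145 and 121, and endothelium to 6.68, 4.74 and 4.70 and to 30.8, 15.2 and 29.8.

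The alternatives were DESeq2 size factors or library totals as scaling, no filter, 10 counts in every library, DESeq2's Wald test, a fold of 2 or more, leaving out each library, a block for the replicate number, a fit without the group that is not compared, and leaving out the 2 astrocyte libraries whose files follow another naming. Thinning all libraries to the smallest was chosen after seeing the data. The procedure was tested on simulated data. Promoter sequences are from RefSeq (GRCr8).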

Additional observations from a re-analysis of the deposited data

Results flagged for a closer look

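The results in this paragraph stand out because the response to a fibril differed between the cell types when that difference itself was tested in edgeR, as an interaction. Each value is the log2 response of microglia minus that of astrocytes. With Aβ42 it was -1.62 for Nfkb1, -1.19 for Nfkb2 and -1.71 for Rela among the subunits, and -2.51 for Nfkbie and -2.58 for Nfkbiz among the inhibitors. With Aβ40 it was -1.56 for Nfkb1, -1.72 for Nfkb2, -1.81 for Rela, -2.86 for Nfkbie and -2.30 for Nfkbiz. Cell type cannot be told apart from separate preparation here.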

How the results depend on the processing

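The number of the 7 measured genes called stayed within 1.5 times of the one reported under every setting tried, apart from the cases given here. At 2-fold or more, 4 were called with Aβ42 and 3 with Aβ40 in microglia, and 0 between the fibrils there. That last count, 1 as reported, was also 0 in a fit of the compared groups alone and with the replicate number as a replicate block, and 0 to 1 when each library was left out. Whether replicate numbers pair the samples is not given. Residuals of equal number had r of -0.526 to 0.358 in astrocytes and -0.194 to 0.217 in microglia. Those of unequal number had r of -0.462 to 0.527 and -0.215 to 0.225. These values show no pairing by number, but 3 libraries per group cannot exclude it. Under other numbers, the residuals of astrocyte control 2, Aβ42 replicate 3 and Aβ40 replicate 1 had r of 0.494 to 0.527 with each other. In their groups these libraries hold the lowest values of Nfkb2, Rela, Nfkbie and Bcl3 and the highest of Nfkbiz, a shared structure that the fits do not model and that the intervals in astrocytes do not take into account. Of the single log2 fold changes of the 7 genes, 498 under other settings kept their direction and side of the threshold, 2 became weaker, 2 stronger and 2 reversed, and 730, 7, 0 and 19 did so when a library was left out. For the list counts of the 4 comparisons with control, 137 stayed within 1.5 times and 15 moved under other settings, and 142 and 2 when a library was left out. At 2-fold or more the genes called were 3 and 3 kinases, 8 and 8 adaptors and 2 and 2 editors in astrocytes with Aβ42 and Aβ40, and 2 and 2, 4 and 4, and 3 and 3 in microglia. With 10 counts in every library 14 targets were tested in astrocytes and 12 of them called with either fibril, and after thinning 5 kinases were called with Aβ42 in microglia. Of the log2 fold changes of the list genes named, 632 were the same, 35 weaker and 2 stronger under other settings, and 672, 44 and 3 with 1 reversed when a library was left out. The reversals among the 7 genes and the lists were of uncalled values near 0. Bcl3 in astrocytes with Aβ42 against Aβ40 was 0.0367 without the 2 libraries of another file naming, and Nfkb1 in microglia was -0.0439 after thinning. Leaving out each library, Aβ42 against Aβ40 in astrocytes ranged from -0.0533 to 0.100 for Rela, -0.0316 to 0.127 for Nfkb2, -0.0160 to 0.0253 for Nfkbia and -0.254 to 0.0757 for Bcl3. In microglia it ranged from -0.0460 to 0.0784 for Nfkb1, -0.132 to 0.0273 for Nfkbiz, -0.180 to 0.00930 for Nfkbia and -0.00763 to 0.186 for Bcl3. The Aβ40 interaction of Bcl3 ranged from -0.119 to 0.297, and Map3k14 with Aβ40 in astrocytes from -0.358 to 0.0699. Depth differed by up to 9.80 times, and the cause of these changes was not tested.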
